A study of Mus musculus with 6 samples.

Results

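RNA of the PI3K, AKT, FOXO3 and mTOR signalling route was compared between wildtype mouse ovaries and ovaries lacking Galt, the uridylyltransferase of galactose breakdown. The route was represented by 31 listed genes, found by symbol among the 55487 Ensembl genes of the count table. All 31 passed the filter on low counts. The 6 libraries were 3 wildtype and 3 GalTKO (genotype GalT-/-) samples of total RNA from ovary, and both genotypes were given as the strain mix cbl/6-ola/129. All mice, controls included, ate food with 2.5% galactose over 4 weeks from weaning, and ovaries were collected at postnatal day 49. The labels give neither the estrous stage nor whether a sample is 1 animal or a pool, and p-values therefore rest on the spread among these samples, which may be technical. No wildtype mouse on a diet without galactose is among the samples, so values refer to genotype under galactose.

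In the ovary this route is known for setting the pace at which resting follicles start to grow. KIT ligand made by granulosa cells binds the receptor KIT on the oocyte, PI3K then makes the lipid signal that recruits AKT, and AKT phosphorylates FOXO3, which leaves the nucleus and no longer holds the oocyte at rest. AKT also restrains the TSC proteins, which frees RHEB to switch on mTOR complex 1, the driver of protein synthesis. Most of this control works through phosphorylation and movement of proteins, which RNA counts do not measure.

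The libraries held between 19232486 and 25729564 gene counts. Levels are given as CPM, counts scaled to the library total by TMM, in the order of replicates 1, 2 and 3. Galt checked the labels, at 17.8, 16.1 and 17.4 CPM in wildtype against 0.155, 0.259 and 0 CPM in GalTKO libraries. The ovary label was checked on marker genes, and all 15 oocyte and 10 granulosa markers had counts in every library. Mitochondrially encoded genes took 1.37% to 1.97% of counts in wildtype and 2.22% to 3.53% in GalTKO libraries. Of the 31 genes, Inpp4b had the fewest counts over the 6 libraries (1231) and Foxo1 the most (109673).

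No gene of the route changed between the genotypes at the threshold used. Of 31 genes, 0 reached an adjusted p under 0.05 (edgeR quasi-likelihood test, Benjamini-Hochberg adjustment over all 16957 genes tested), against 2.55% of all tested genes, 1.13% higher and 1.43% lower. At an unadjusted p under 0.05 there were 5 (16.1%), which were Inpp5d, Gsk3b, Pik3cb, Kitl and Pik3r2, and the share over the whole table was 17.1%. The DESeq2 Wald test called 2 of the 31, Inpp5d and Gsk3b, both lower in GalTKO ovaries, and limma voom called 0. The 3 values of one genotype lay clear of the other for 8 genes (25.8%), 6 lower and 2 higher in GalTKO, and the share among all tested genes was 23.7% (12% lower and 11.8% higher). These shares lie near the background, so they are no result about the route.

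The 95% intervals, not adjusted over genes, gave a range for the size of each difference. Log2 fold changes (GalTKO minus wildtype) ran from -0.54 for Inpp5d to 0.31 for Rps6kb2, with 22 negative, 9 positive and a median of -0.06, where the median of all tested genes was 0.02. The median absolute log2 fold change was 0.08, against 0.17 over all tested genes and 0.12 over the 10485 tested genes within the same range of mean level. For 27 of 31 genes (87.1%) the 95% interval lay inside a 1.5-fold change in either direction, against 76.5% of the genes in that range of level. The other 4 were Inpp4b, Inpp5d, Deptor and Rps6kb2, and no interval among the 31 reached 2-fold.

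**Figure D1:**
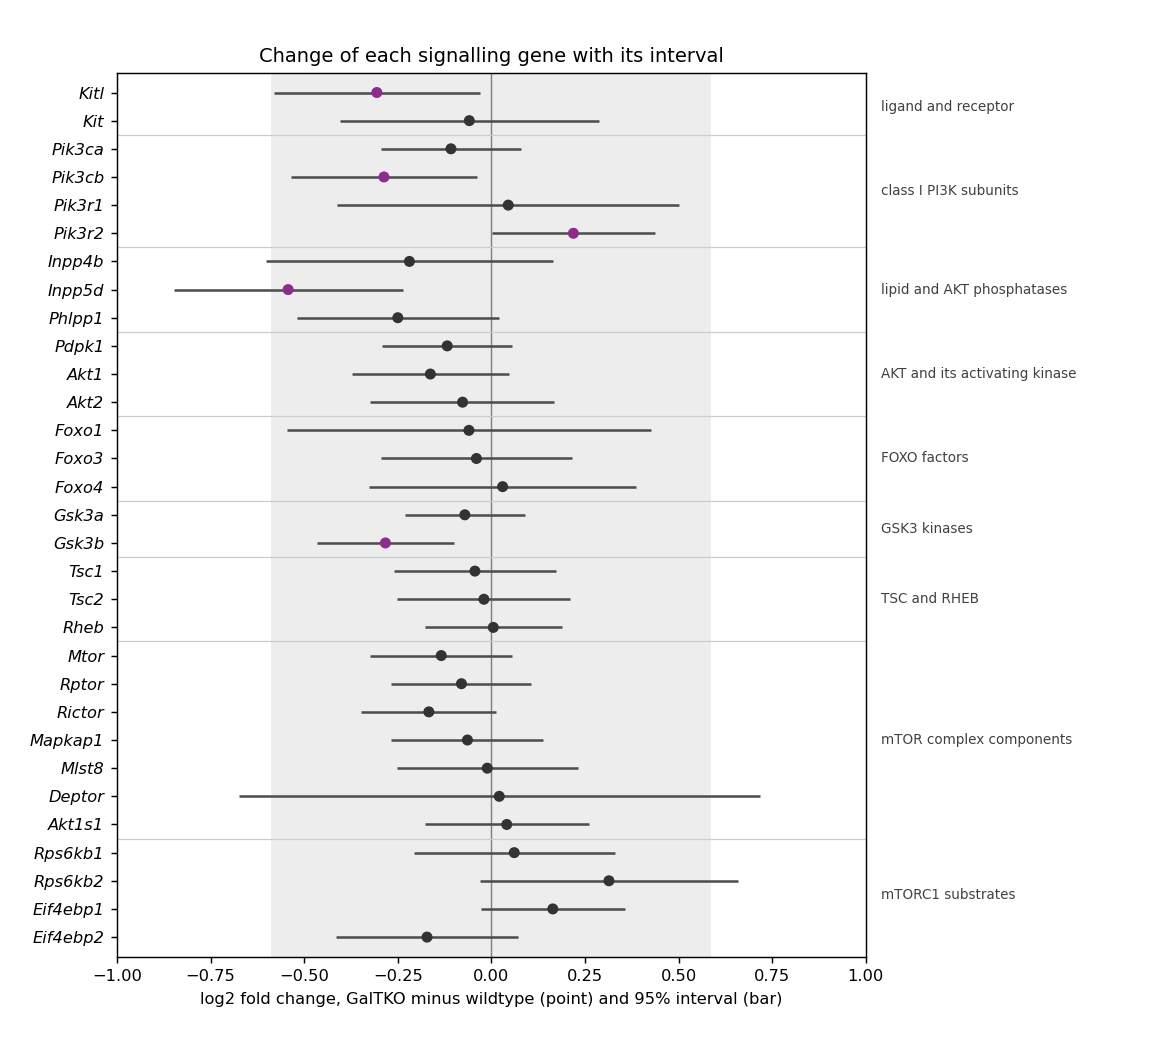
Log2 fold change of each of the 31 genes, GalTKO minus wildtype (points), with its 95% interval (bars, edgeR) and the genes grouped by role. The grey band marks a 1.5-fold change either way, purple points have an unadjusted p under 0.05, and only the bars of Inpp4b, Inpp5d, Deptor and Rps6kb2 leave the band.

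Neither the ligand nor its receptor passed the test. Kitl (ENSMUSG00000019966; GRCm38 chromosome 10, 100015630 to 100100416, plus strand), which encodes KIT ligand, had 168.2, 153.9 and 187.4 CPM in wildtype libraries against 121.2, 132.4 and 158.7 CPM in GalTKO libraries. The groups overlapped only because GalTKO replicate 3 stood above wildtype replicate 2. For Kitl the difference was -0.31 ± 0.12 on the log2 scale (SE, n = 3 per group; edgeR adjusted p = 0.247), and its interval of fold ran from 0.668 to 0.98. Kit (ENSMUSG00000005672; chromosome 5, 75574916 to 75656722, plus strand) encodes the receptor, which oocytes and theca or interstitial cells carry. It had 70.7, 60.8 and 50.5 CPM in wildtype and 67.2, 57.9 and 49.4 CPM in GalTKO libraries. The Kit groups covered almost the same span, with a fold of 0.96 (95% interval 0.755 to 1.22; edgeR adjusted p = 0.884). Counts per gene do not separate the soluble and membrane forms of KIT ligand.

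Markers of the cell types known to make KIT ligand or KIT were summed in the same libraries. Summed over 15 oocyte markers, the level was 453.4, 484.2 and 320.8 CPM in wildtype and 426.8, 373.3 and 366.3 CPM in GalTKO libraries, with 0 of 15 called. Summed over 10 granulosa markers it was between 8327.1 and 9905.4 CPM in wildtype and between 8444.9 and 10206.6 CPM in GalTKO libraries, with Amh called higher and Nr5a2 called lower. The sum of 5 theca and interstitial markers was 10748.7, 11915.9 and 15656.7 CPM in wildtype and 6632.3, 7498.4 and 9959.6 CPM in GalTKO libraries. Of these 5 markers, 3 had a negative and 2 a positive log2 fold change, and Star was called lower. The part of these cells in the values of Kit and Kitl was not tested. In whole ovaries, fewer cells of a type and less RNA per cell cannot be told apart.

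The 4 PI3K subunits differed in direction. The catalytic subunit genes were Pik3ca and Pik3cb, and the regulatory ones Pik3r1 and Pik3r2. Pik3cb had 20.1, 20.8 and 23.3 CPM in wildtype and 16.6, 18.4 and 17.6 CPM in GalTKO libraries, so that all GalTKO values lay below all wildtype values. Its fold was 0.819 (95% interval 0.69 to 0.973; edgeR adjusted p = 0.23). Pik3r2 had 72.7, 70.5 and 67.7 CPM in wildtype and 79.3, 91.4 and 74.6 CPM in GalTKO libraries, with the GalTKO values above and a fold of 1.164 (1.001 to 1.353; edgeR adjusted p = 0.289). Pik3ca, the more abundant catalytic subunit, lay between 115.3 and 125.9 CPM in wildtype and between 105.3 and 118.3 CPM in GalTKO libraries, with overlapping groups. Pik3r1 varied most among libraries, from 249.5 to 386.4 CPM in wildtype and from 256.1 to 377.2 CPM in GalTKO, and its log2 fold change of 0.04 ± 0.20 (SE) turned negative in 3 of the 6 fits with a library left out, down to -0.11.

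Among the phosphatases that oppose the route, Inpp5d had the smallest p of the 31 genes. It encodes SHIP1, a lipid phosphatase known mainly from blood cells (ENSMUSG00000026288; chromosome 1, 87620312 to 87720507, plus strand). Inpp5d had 16.4, 16.7 and 17.7 CPM in wildtype libraries against 13.4, 11.1 and 10.3 CPM in GalTKO libraries. All 3 GalTKO values lay below the wildtype values, and the wildtype values differed little among themselves. The difference was -0.54 ± 0.13 on the log2 scale (SE, n = 3 per group; unadjusted p = 0.00331, edgeR adjusted p = 0.0849), a fold of 0.686 with a 95% interval from 0.555 to 0.849. The gene passed in DESeq2 (adjusted p = 0.0174) and in edgeR when low counts were left unfiltered (adjusted p = 0.0392), but in none of the 6 fits with a library left out, where the adjusted p ran from 0.0644 to 0.253.

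Summed leukocyte markers were, like Inpp5d, lower in every GalTKO library than in every wildtype library. This was not particular to leukocytes, since theca and interstitial and endothelial sums also separated. The mast cell sum did so as well, and the sums of the other lists overlapped. Endothelial markers summed to 519.7, 596.3 and 650.1 CPM in wildtype and to 411.9, 460.8 and 432.2 CPM in GalTKO libraries. All 7 had a negative log2 fold change, and Pecam1 and Kdr were called lower. All 10 macrophage and myeloid markers had a negative log2 fold change and 5 were called lower, with a median of -0.65. Their sum was 565.3, 582.5 and 483.2 CPM in wildtype and 340.2, 345.2 and 311.4 CPM in GalTKO libraries. Within wildtype the order differed, since replicate 3 had the highest Inpp5d value and the lowest sum of these markers. The 10 markers of other leukocytes summed to between 19.7 and 21.4 CPM in wildtype and between 11.0 and 15.9 CPM in GalTKO libraries. Of the 7 with enough counts to be tested, 5 had a negative and 2 a positive log2 fold change, and 0 were called. Cd8a had no count in GalTKO replicate 2. The part of these cells in the Inpp5d values was not tested. Inpp4b, a phosphatase acting on the product of SHIP enzymes, lay between 8.49 and 10.8 CPM in wildtype and between 7.43 and 9.45 CPM in GalTKO libraries. Phlpp1, which takes the phosphate from AKT itself, had 50.02, 47.2 and 42.1 CPM in wildtype and 37.2, 44.7 and 35.2 CPM in GalTKO libraries. GalTKO replicate 2 lay within the wildtype span, and the fold of Phlpp1 was 0.841 (0.698 to 1.014; edgeR adjusted p = 0.331).

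**Figure D2:**
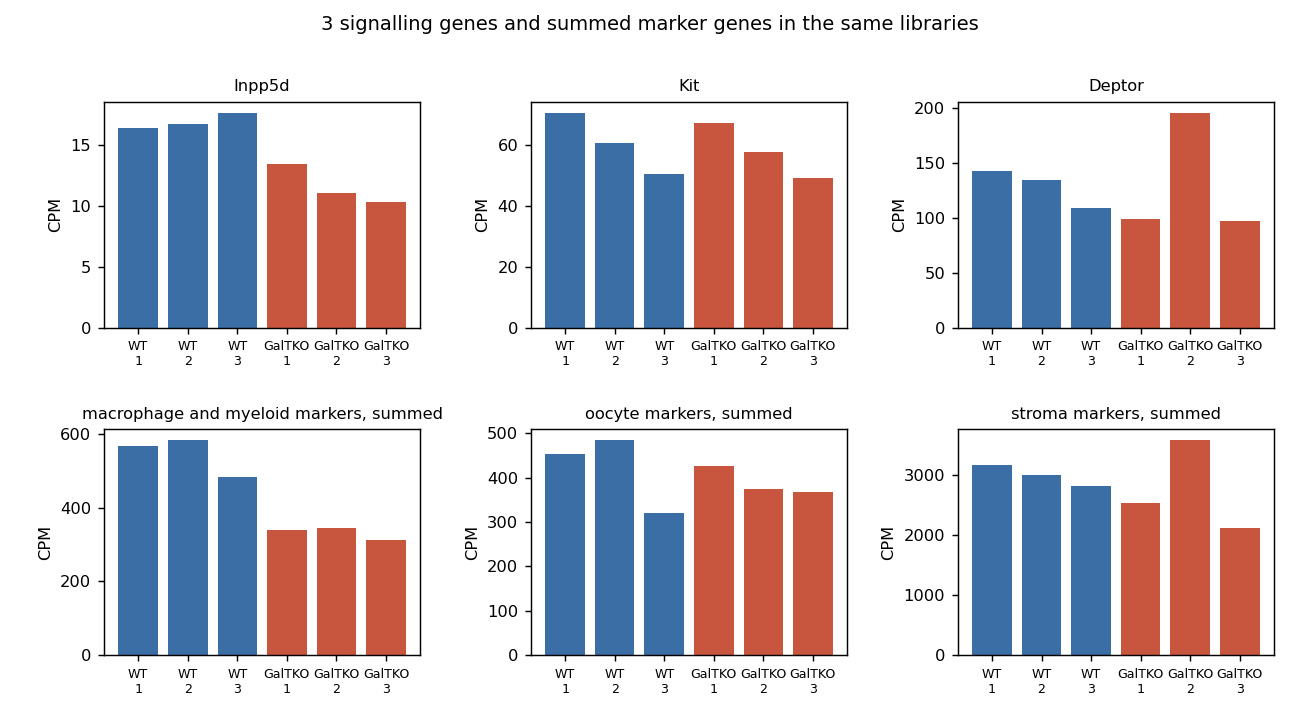
CPM of Inpp5d, Kit and Deptor in each library (top) above the summed CPM of marker genes of 1 cell type in the same libraries (bottom), with wildtype (WT) in blue and GalTKO in red. Inpp5d and the sum of 10 macrophage and myeloid markers were both below wildtype in all 3 GalTKO libraries, as were sums of other cell types, not shown. Deptor and the sum of 7 stroma markers both stood highest in GalTKO replicate 2, as did the smooth muscle and surface epithelium sums, not shown.

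The kinases at the centre of the route differed little. Akt1 (ENSMUSG00000001729; chromosome 12, 112653821 to 112674884, minus strand) had 289.9, 267.1 and 295.9 CPM in wildtype and 276.2, 236.0 and 249.5 CPM in GalTKO libraries. GalTKO replicate 1 stood above wildtype replicate 2, so the groups overlapped. The fold of Akt1 was 0.893 (95% interval 0.772 to 1.03; edgeR adjusted p = 0.42). Akt2, its partner known for insulin responses, lay between 151.4 and 173.5 CPM in wildtype and between 134.9 and 172.5 CPM in GalTKO libraries. Pdpk1, the kinase that activates AKT, had 115.0, 114.1 and 104.6 CPM in wildtype and 103.2, 103.5 and 100.7 CPM in GalTKO libraries. Its groups did not overlap, but the gap between wildtype replicate 3 and GalTKO replicate 2 was small against the spread within wildtype, and the fold was 0.921 (0.816 to 1.04).

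The FOXO transcription factors that AKT shuts out of the nucleus showed no difference that the test could tell from 0. Foxo3 (ENSMUSG00000048756; chromosome 10, 42181841 to 42276755, minus strand), the brake on resting oocytes, had 221.3, 201.4 and 190.4 CPM in wildtype and 203.9, 220.8 and 171.7 CPM in GalTKO libraries. The groups overlapped over most of their span, with a fold of 0.973 (95% interval 0.815 to 1.161; edgeR adjusted p = 0.896). Counts from whole ovaries do not separate Foxo3 RNA of oocytes from that of other cells. Foxo1 (ENSMUSG00000044167; chromosome 3, 52268336 to 52353221, plus strand), the family member known from granulosa cells of growing follicles, had 929.7, 782.0 and 680.5 CPM in wildtype and 905.6, 533.8 and 856.0 CPM in GalTKO libraries. GalTKO replicate 2 was the lowest of all 6 libraries, and the log2 fold change of -0.06 ± 0.21 (SE) became 0.14 without it. Foxo4 lay between 26.4 and 33.8 CPM in wildtype and between 27.3 and 38.5 CPM in GalTKO libraries.

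Gsk3b had the second smallest p of the 31 genes. It encodes a kinase that AKT switches off by phosphorylation (ENSMUSG00000022812; chromosome 16, 38089001 to 38246084, plus strand). Gsk3b had 316.7, 313.3 and 345.3 CPM in wildtype and 268.5, 264.8 and 268.3 CPM in GalTKO libraries. The groups lay well apart, and the 3 GalTKO values differed by less than 4 CPM. The difference was -0.28 ± 0.08 on the log2 scale (SE, n = 3 per group; unadjusted p = 0.00728, edgeR adjusted p = 0.125), a fold of 0.822 with a 95% interval from 0.724 to 0.934. In DESeq2 the gene passed (adjusted p = 0.0361). Its partner Gsk3a had 114.7, 114.6 and 117.8 CPM in wildtype and 111.7, 109.8 and 108.9 CPM in GalTKO libraries. Those groups did not overlap either, at a smaller distance, with a fold of 0.952 (0.851 to 1.06; edgeR adjusted p = 0.666).

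**Figure D3:**
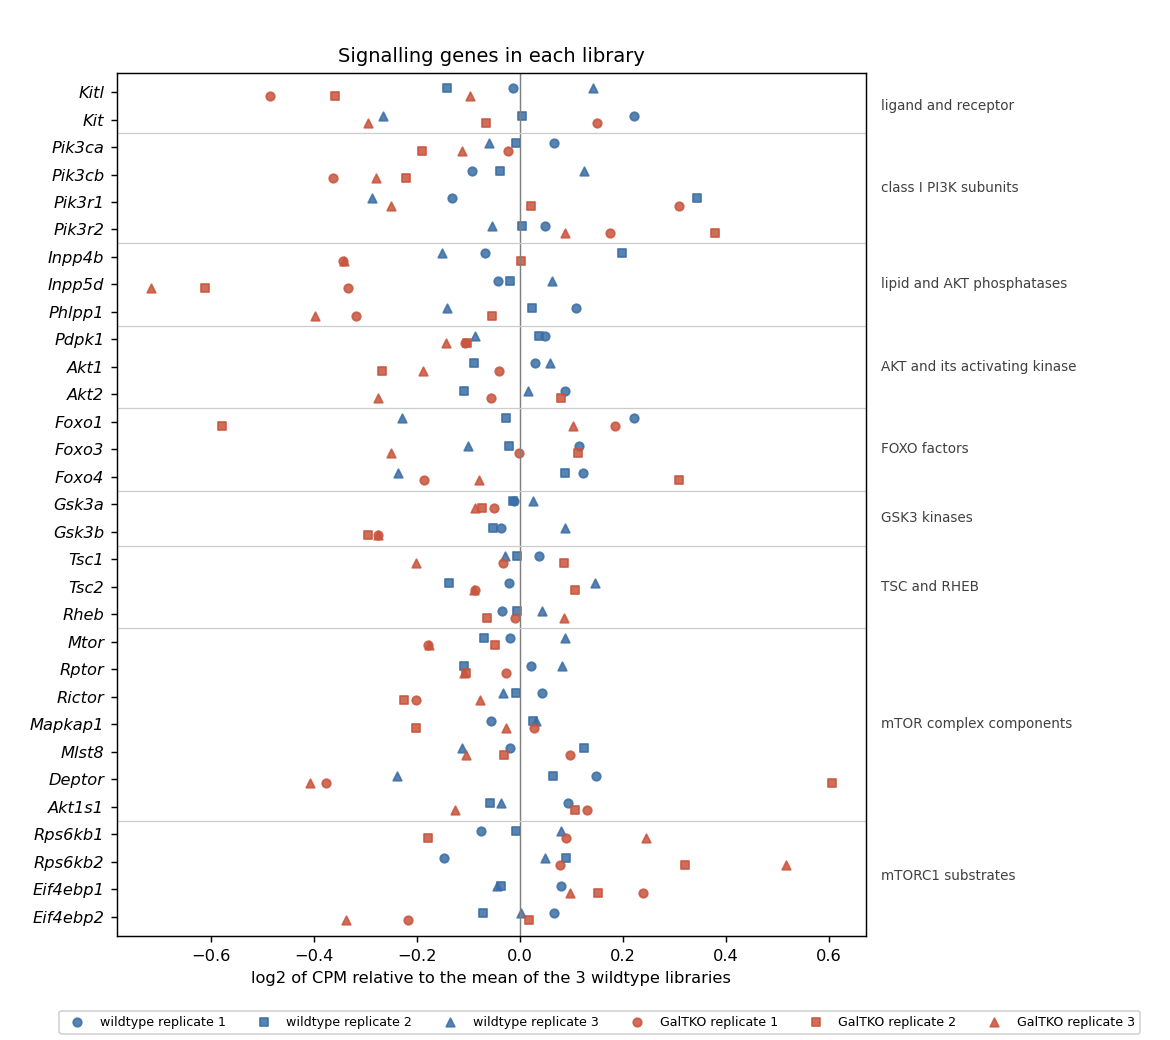
Log2 of CPM in each library relative to the mean of the 3 wildtype libraries, for the 31 genes grouped by role, with wildtype in blue, GalTKO in red and the replicate number as the marker shape. Gsk3b and Inpp5d show GalTKO values below all wildtype values, and GalTKO replicate 2 stands apart for Foxo1 (533.8 CPM) and Deptor (195.6 CPM).

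The TSC brake genes and Rheb had close means in the genotypes, and 0 of these 3 genes were called. Folds were 0.97 for Tsc1 (95% interval 0.834 to 1.127) and 0.986 for Tsc2 (0.84 to 1.158). Tsc1 and Tsc2, whose products together keep RHEB inactive, had means of 53.2 ± 1.25 and 96.8 ± 9.68 CPM over the wildtype libraries and of 51.6 ± 5.11 and 95.5 ± 7.64 CPM over the GalTKO ones (SD, n = 3). Rheb, the small GTPase that activates mTOR complex 1, had means of 62.2 ± 1.70 CPM over wildtype and 62.4 ± 3.28 CPM over GalTKO libraries, and its fold of 1.003 had a 95% interval from 0.884 to 1.14.

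Of 7 genes for parts of the mTOR complexes, 5 had a negative and 2 a positive log2 fold change. Mtor (ENSMUSG00000028991; chromosome 4, 148448611 to 148557683, plus strand), the kinase of both complexes, had 103.4, 99.9 and 111.4 CPM in wildtype and 92.6, 101.5 and 92.8 CPM in GalTKO libraries. GalTKO replicate 2 lay above wildtype replicate 2, and the fold was 0.911 (95% interval 0.8 to 1.04; edgeR adjusted p = 0.461). Rictor, the subunit that defines mTOR complex 2, had 85.2, 82.3 and 80.9 CPM in wildtype and 72.0, 70.9 and 78.5 CPM in GalTKO libraries. The Rictor groups did not overlap, with a fold of 0.891 (0.786 to 1.009; edgeR adjusted p = 0.331). Rptor, which defines mTOR complex 1, had overlapping groups from 93.8 to 107.0 CPM in wildtype and from 93.7 to 99.2 CPM in GalTKO. Mapkap1 of complex 2, Mlst8 of both complexes and Akt1s1, an inhibitor within complex 1 that AKT phosphorylates, had folds of 0.956, 0.993 and 1.03.

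Deptor, given library by library after its values were seen, was the gene with the widest interval. Its product binds and inhibits mTOR in both complexes. Deptor had 142.5, 134.4 and 108.9 CPM in wildtype libraries against 99.1, 195.6 and 96.9 CPM in GalTKO libraries. GalTKO replicate 2 stood above every other library while the other 2 GalTKO values lay below all wildtype values. With all libraries the log2 fold change was 0.02 ± 0.29 (SE; edgeR adjusted p = 0.98), and without GalTKO replicate 2 it was -0.39 (adjusted p = 0.115). The coefficient of variation in GalTKO was 43.2%, against a median of 9.91% over the 31 genes. Of all the marker sums taken, only those of 3 cell types were also highest in GalTKO replicate 2. The sum of 5 corpus luteum markers was lowest there, at 1812.5 CPM against 3316.1 to 6458.6 CPM in the other libraries. The sum of 7 stroma markers was 3168.5, 3008.6 and 2821.0 CPM in wildtype and 2539.9, 3582.0 and 2112.2 CPM in GalTKO libraries. Smooth muscle and pericyte markers summed to 2034.6 CPM in GalTKO replicate 2 and to between 1349.5 and 1781.5 CPM in the other 5 libraries, and surface epithelium markers to 189.0 CPM against 116.3 to 131.1 CPM. The part of these cells in the Deptor values was not tested.

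Of 4 genes for substrates of mTOR complex 1, 3 had a positive and 1 a negative log2 fold change, and 0 were called. Rps6kb1 and Rps6kb2 encode the ribosomal protein S6 kinases, and Eif4ebp1 and Eif4ebp2 encode repressors of cap-dependent translation that mTOR complex 1 inactivates. Rps6kb2 had 9.80, 11.5 and 11.2 CPM in wildtype and 11.5, 13.5 and 15.5 CPM in GalTKO libraries. Its groups overlapped, since GalTKO replicate 1 lay just under wildtype replicate 2, and the fold was 1.24 (95% interval 0.979 to 1.58; edgeR adjusted p = 0.34). Eif4ebp1 had 54.5, 50.2 and 49.98 CPM in wildtype and 60.8, 57.2 and 55.1 CPM in GalTKO libraries. All 3 GalTKO values of Eif4ebp1 lay above the wildtype values, at a fold of 1.12 (0.98 to 1.28; edgeR adjusted p = 0.375). Eif4ebp2 lay between 267.8 and 294.7 CPM in wildtype and between 222.7 and 284.8 CPM in GalTKO, and Rps6kb1 between 46.4 and 51.8 and between 43.2 and 58.0 CPM. The log2 fold change of Rps6kb1 was 0.06 ± 0.12 (SE), and -0.04 without GalTKO replicate 3.

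Levels were compared between genes per kilobase of annotated exon, as CPM per kb, in which Foxo1 led. In wildtype ovaries Foxo1 stood at 92.03 ± 14.5 CPM per kb (SD, n = 3), Akt1 at 69.4 ± 3.70, Eif4ebp2 at 48.7 ± 2.33 and Gsk3a at 39.9 ± 0.62 CPM per kb. Each of these lay clear of the next in all 3 wildtype libraries. At the low end were Pik3cb at 2.98 ± 0.24, Inpp5d at 2.23 ± 0.09, Rps6kb2 at 2.10 ± 0.18 and Inpp4b at 0.72 ± 0.09 CPM per kb. Of 30 neighbouring pairs in the wildtype order, 17 overlapped, among them Kitl (28.7 ± 2.85) with Foxo3 (27.0 ± 2.07) and Mtor with Pdpk1. In GalTKO ovaries the first 4 genes stood in the same order by mean, no gene moved by more than 3 places, and Inpp4b was again the lowest.

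**Figure D4:**
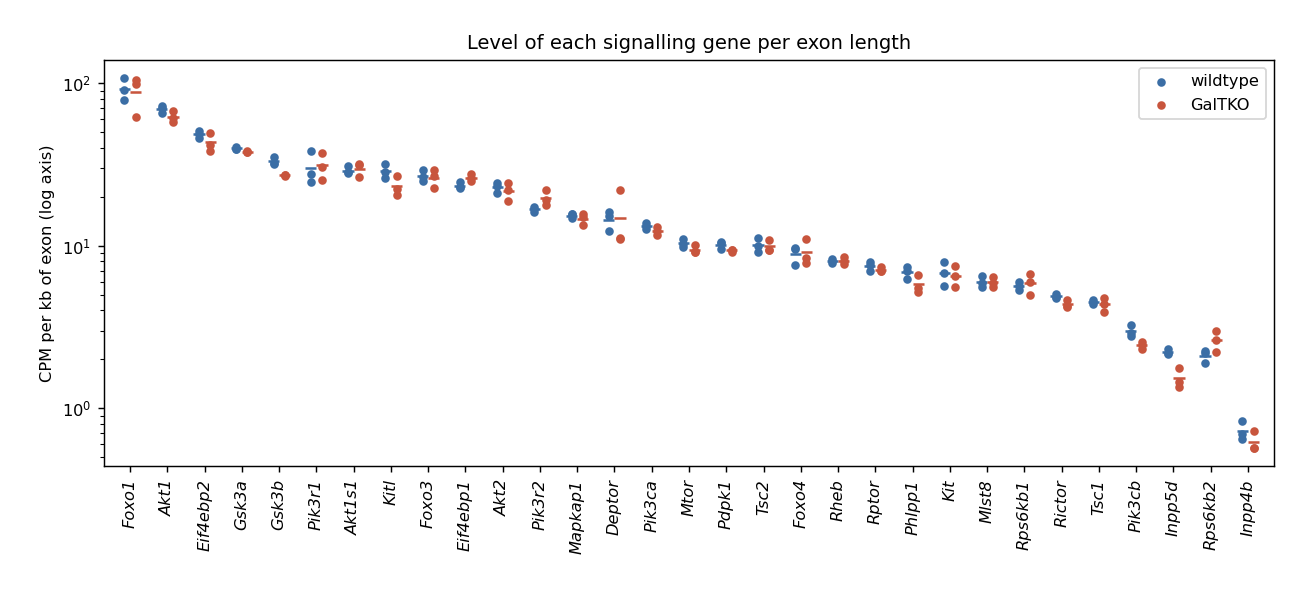
Level of the 31 genes as CPM per kb of exon on a log axis, ordered by the wildtype mean, with 1 point per library and a bar at the mean of each genotype. Foxo1 stands highest near 92.03 and Inpp4b lowest near 0.72 CPM per kb in wildtype, and the GalTKO points follow the same course.

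Ratios of CPM per kb within a library set 11 pairs of partners against each other. Gsk3b stood at 0.814, 0.807 and 0.865 of Gsk3a in wildtype and at 0.709, 0.711 and 0.727 in GalTKO libraries. Eif4ebp2 stood at 2.06, 2.02 and 2.14 times Eif4ebp1 in wildtype and at 1.51, 1.89 and 1.53 times in GalTKO libraries. Both ratios were lower in every GalTKO library than in every wildtype library. In each case the two-sided exact permutation test gave p = 0.1, the smallest that 3 against 3 libraries allow, and 0.55 after Benjamini-Hochberg adjustment over the 11 pairs. The other 9 ratios had p from 0.2 to 1. Foxo1 stood at 3.39 ± 0.27 times Foxo3 in wildtype and 3.45 ± 1.18 times in GalTKO, Akt1 at 3.03 ± 0.11 and 2.89 ± 0.45 times Akt2, and Kitl at 4.33 ± 1.10 and 3.67 ± 1.08 times Kit (SD, n = 3).

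Further genes of the same route were followed as a list of 52, holding other PI3K subunits, lipid phosphatases, nutrient sensors of mTOR complex 1 and the 14-3-3 proteins that bind phosphorylated FOXO. All 52 were tested and 0 passed in edgeR. At an unadjusted p under 0.05 there were 10 (19.2%), where the table as a whole had 17.1%, and DESeq2 called 1, Fnip2, while voom called 0. Their median log2 fold change was -0.04, with 30 negative and 22 positive. Fnip2, a folliculin partner that takes part in amino acid signalling to mTOR complex 1, had 35.4, 37.0 and 30.6 CPM in wildtype and 27.1, 23.3 and 24.2 CPM in GalTKO libraries. Its groups did not overlap, and the log2 fold change was -0.46 ± 0.11 (SE; edgeR adjusted p = 0.0764). Pik3r5, a regulatory subunit found mainly in leukocytes, had 6.68, 6.00 and 4.33 CPM in wildtype and 2.44, 3.75 and 3.70 CPM in GalTKO libraries (log2 fold change -0.79 ± 0.25, SE). Rps6ka1, an S6 kinase of the ERK pathway, had 35.2, 30.8 and 36.7 CPM in wildtype and 40.8, 53.1 and 39.9 CPM in GalTKO libraries (0.38 ± 0.13). The RAG GTPase gene Rragc had 84.6, 81.7 and 79.2 CPM in wildtype and 72.9, 70.7 and 67.5 CPM in GalTKO libraries (-0.22 ± 0.08). The groups of these 3 genes did not overlap, and their edgeR adjusted p ran from 0.163 to 0.2. Groups without overlap were found for 10 of the 52 genes (19.2%), against 23.7% of all tested genes. Without GalTKO replicate 2 only Pik3cd of the 52 passed, the catalytic subunit known from leukocytes, at 0.54 (edgeR adjusted p = 0.0252) against 0.39 (0.225) with all libraries.

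Of the genes known as FOXO targets 1 of 28 tested was called, lower, where 2.55% of all tested genes were called and 1.43% called lower. The list held 33 genes, both ones that FOXO factors raise and ones they lower, so its direction is not read as a sign of FOXO activity. Of the 28, 8 were under 0.05 before adjustment (28.6%, where the whole table had 17.1%), and 17 were negative and 11 positive, with a median of -0.10. Ccnd1, which encodes cyclin D1 of the step into DNA replication and is lowered by FOXO factors (ENSMUSG00000070348; chromosome 7, 144929931 to 144939925, minus strand), had 41.2, 32.8 and 42.8 CPM in wildtype and 22.8, 25.3 and 18.1 CPM in GalTKO libraries. It fell, with groups that did not overlap and a log2 fold change of -0.82 ± 0.15 (SE, n = 3 per group; edgeR adjusted p = 0.0328). With a library left out, the log2 fold change of Ccnd1 ran from -0.93 to -0.70. Of these 6 fits it passed without GalTKO replicate 2 (edgeR adjusted p = 0.0184), and adjusted p in the other 5 ran from 0.0539 to 0.129.

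Insr, Sod2 and Cdkn1b are given because DESeq2 also called them, and were chosen after their values were seen. Insr, the insulin receptor gene, had 184.3, 191.3 and 216.7 CPM in wildtype and 142.8, 150.0 and 151.1 CPM in GalTKO libraries (log2 fold change -0.42 ± 0.09, SE; edgeR adjusted p = 0.0505). Sod2, the mitochondrial superoxide dismutase, stood at -0.44 ± 0.11 and Cdkn1b, which encodes the cell cycle inhibitor p27, at -0.71 ± 0.18 (edgeR adjusted p = 0.0921 and 0.0953). All 3 genes had GalTKO values below all wildtype values. Groups without overlap were found for 7 of the 28 tested FOXO targets (25%), near the 23.7% of all tested genes. Cdkn1a, which encodes the inhibitor p21 and was likewise picked after the fact, had 22.8, 19.9 and 24.1 CPM in wildtype and 100.1, 29.3 and 36.6 CPM in GalTKO libraries. GalTKO replicate 1 carried most of that difference, and without it the log2 fold change of 1.32 ± 0.49 became 0.56.

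**Figure D5:**
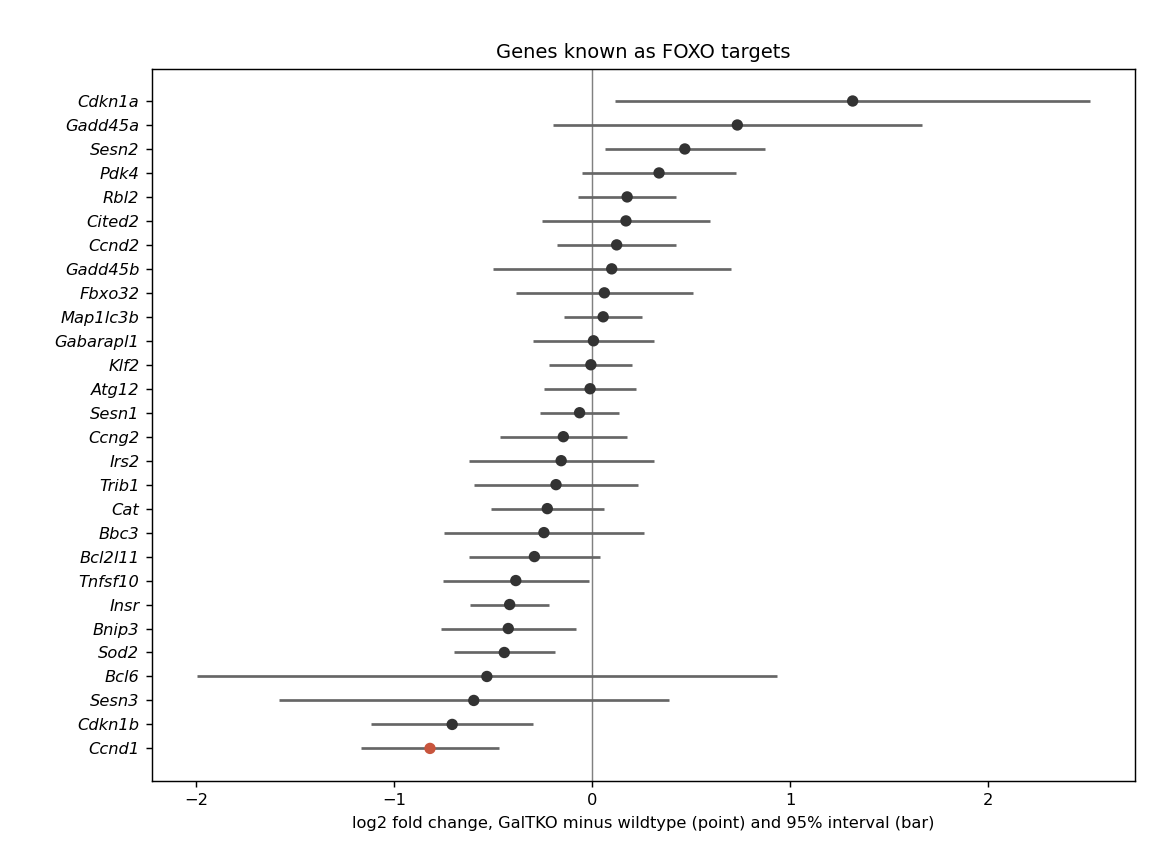
Log2 fold change of the 28 tested FOXO target genes, GalTKO minus wildtype (points), with 95% intervals (bars, edgeR), ordered by size. Ccnd1, in red at -0.82, is the gene with an adjusted p under 0.05, and Cdkn1a stands highest at 1.32 with an interval from 0.12 to 2.51.

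Promoters of these genes were searched for GTAAACA, the core sequence that FOXO factors bind, on both strands, in windows from 250 bases before to 50 bases after the start site (RefSeq, GRCm38.p6). It was present for 2 of the 27 genes of the route with a promoter in the table (7.41%), Akt1 and Mapkap1, for 4 of 27 FOXO target genes (14.8%), for 1 of 47 further genes of the route, Pik3cg (2.13%), and for 1095 of 27025 genes in all (4.05%). The upstream matches of the route's own genes and of FOXO targets are shown so that the sites can be read beside the values, on the strand of the gene, 5′ to 3′, with the motif or its reverse complement in capitals.
Akt1 (chr12:112675019-112675065, minus strand): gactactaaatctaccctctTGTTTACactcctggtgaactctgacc
Mapkap1 (chr2:34406652-34406698, plus strand): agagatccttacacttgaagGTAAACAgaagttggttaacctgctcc
Bcl2l11 (chr2:128125791-128125837, plus strand): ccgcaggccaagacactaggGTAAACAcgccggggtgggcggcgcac
Trim63 (chr4:134314906-134314952, plus strand): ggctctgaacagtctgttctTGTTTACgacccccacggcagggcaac
Bbc3 (chr7:16310074-16310120, plus strand): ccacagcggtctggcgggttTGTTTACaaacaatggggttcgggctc
Neither Akt1 (log2 fold change -0.16) nor Mapkap1 (-0.06) passed the test, nor did the cell death genes Bcl2l11 (-0.29) and Bbc3 (-0.24). Trim63, a ubiquitin ligase gene known from muscle, had 0, 2 and 1 counts in wildtype and 12, 12 and 5 in GalTKO libraries, too few to pass the filter. With no filter it was called higher by edgeR (adjusted p = 0.0391), the single FOXO target called higher in any of the settings run. The match of Sesn1 lay past its start site. A match is a description of the letters, not evidence of binding.

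Exons of 10 of the 31 genes overlapped a gene on the opposite strand. By exon bases the largest shares were 28.3% of Gsk3a with the antisense gene 9130221H12Rik, 23.7% of Rps6kb2 with Ptprcap and 22.5% of Mlst8 with Bricd5, and these partners had 1304, 74 and 21 counts over the 6 libraries. By counts the largest partners were Pkd1, with 28027 against 13462 for Tsc2 (7.2% of its exon bases), and Coro1b, with 15540 against 1685 for Rps6kb2 (0.9%). Libraries were made with a kit that keeps strand, but no source used here gives the strand setting of the counting, so how far reads of these partners enter the counts is not known.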

How the data were processed

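The authors deposited raw counts per Ensembl gene, whole numbers with no normalization, for 6 ovary libraries. Per the submitters' processing notes, STAR 2.7.6a and featureCounts 1.6.3 were used beside cutadapt 1.16 and DESeq2 1.30.1, on build GRCm38. No source used here gives the annotation release, strand setting or handling of multiply matching reads. Per the labels' protocols, ribosomal RNA was depleted before stranded total RNA libraries were made, so unspliced RNA can add to counts.

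Symbols, coordinates and exon lengths came from GENCODE M21, which matched 55227 of 55487 identifiers. Counts were tested in R 4.3.3 with edgeR 4.0.16: filterByExpr (minimum count 10, minimum total 15), TMM scaling, and a robust quasi-likelihood fit of genotype over all 6 libraries. P-values were two-sided and adjusted by Benjamini-Hochberg over 16957 genes, with calls under 0.05. The SE was the log2 fold change divided by the square root of F, and 95% intervals used the test's degrees of freedom. On simulated data the fit recovered 78 of 100 genes changed 2-fold and 92 of 100 changed 4-fold, with 7 false among 177 calls. Changes smaller than 2-fold were not simulated, so recovery of such changes is not known. Alternatives were upper-quartile scaling, median-of-ratios scaling, DESeq2 1.42.0, limma 3.58.1 voom with quality weights, no filter, at least 1 CPM in 3 libraries, a replicate block, each library left out, and an adjusted p of 0.1. Ratios were tested by exact permutation in scipy 1.17.1.

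The genes and lists were chosen with earlier results of these data known. Named with values in every library were genes with separated groups, the 8 with the smallest p, and Kit, Kitl, Foxo1, Foxo3, Akt1 and Mtor, and from the further lists every called gene or the 4 with the smallest p. Deptor, Pik3cd, Insr, Sod2, Cdkn1b and Cdkn1a were added after their values were seen. Markers of theca, luteal, mast, endothelial, muscle and surface epithelial cells were also summed; of these Star, Pecam1, Kdr and Rgs5 were called lower and Krt8 higher.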

Additional observations from a re-analysis of the deposited data

How the results depend on the processing

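The count of called genes was 0 of the 31 route genes under both other scalings, voom, the stricter filter, the replicate block and each library left out (range 0 to 0). It was 2 in DESeq2, 1 with no filter on low counts and 1 at an adjusted p of 0.1, where Inpp5d was called. Among the 52 further genes it was 1 in DESeq2, 1 with no filter, 1 at an adjusted p of 0.1, and 0 to 1 with a library left out. Among FOXO targets the 1 call became 4 in DESeq2, 2 in voom, 5 with no filter, 4 at an adjusted p of 0.1, and 0 to 3 with a library left out. Over all genes 433 calls became 1044 in DESeq2, 877 with no filter, 761 at an adjusted p of 0.1, and 165 to 742 with a library left out. Fits with a library left out had fewer samples, and the fit with no filter tested more genes. An adjusted p of 0.1 is a looser threshold on the same fit. DESeq2 was run on the same libraries and genes, and why it called more was not tested. The median of the 31 genes stayed between -0.113 and -0.033.

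Of 403 refits of single route genes, 367 kept direction and side of the threshold, 3 became calls (Inpp5d in DESeq2 and with no filter, Gsk3b in DESeq2) and 33 changed sign, in 13 genes. In voom the log2 fold change was -0.001 for Pik3r1, -0.10 for Foxo4 and -0.24 for Deptor. With upper-quartile scaling it was 0.003 for Tsc2 and 0.012 for Mlst8, and with no filter -0.008 for Rheb. With a library left out it ran from -0.18 to 0.065 for Kit, -0.11 to 0.25 for Pik3r1, -0.16 to 0.011 for Akt2, -0.20 to 0.14 for Foxo1, -0.12 to 0.054 for Foxo3, -0.13 to 0.13 for Foxo4, -0.11 to 0.027 for Tsc1, -0.092 to 0.057 for Tsc2, -0.037 to 0.038 for Rheb, -0.069 to 0.049 for Mlst8, -0.39 to 0.20 for Deptor, -0.006 to 0.12 for Akt1s1 and -0.04 to 0.17 for Rps6kb1.

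Wildtype and GalTKO titles share the numbers 1 to 3. Correlations of same-numbered deviations were 0.093, -0.04 and 0.078. Samples numbered 1 and 3 correlated best with their own number, and those numbered 2 did not. The labels name no litter or date, and correlations from so few samples cannot decide whether the numbers pair them. With the replicate block 0 of the 31 genes, 0 of the 52 further genes and 1 FOXO target passed (Cdkn1b in place of Ccnd1), 321 genes in all, and Deptor stood at -0.051.

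Counts were fewest for Inpp4b, Rps6kb2 and Inpp5d (1231, 1685 and 2016 over 6 libraries), but SEs were largest for Deptor and Foxo1 (0.29 and 0.21), with 18212 and 109673 counts. A p above the threshold does not show that a gene was equal in the genotypes.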
